A study of Mus musculus with 4 samples.

Results

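The secreted Wnt antagonists examined here were 10 genes, Sfrp1, Sfrp2, Sfrp4, Sfrp5, Frzb, Dkk1, Dkk2, Dkk3, Wif1 and Sostdc1, in mouse mammary colonies grown with or without Wnt3A. They were taken as every probe set, a group of short probes for one transcript, whose only gene symbol in the platform annotation was one of these names. This gave 19 of 45037 probe sets, and all 10 of 18193 annotated genes were measured. Sfrp1 had 5 probe sets, Sfrp5, Frzb, Dkk1, Dkk3 and Sostdc1 had 2 each, and Sfrp2, Sfrp4, Dkk2 and Wif1 had 1 each.

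Mammary cells from virgin CD1 females 8 to 12 weeks old were sorted as Lin-, CD24+, CD29hi, a gate enriched for mammary stem cells with a stated purity above 95%. Colonies grew in Matrigel, a gel of basement membrane proteins, in medium with 50 ng/ml EGF. The Wnt3A group received 200 ng/ml purified Wnt3A protein and the control group received its vehicle, CHAPS detergent in PBS. RNA came from second-passage colonies harvested after 6 to 7 days, and each group had 2 arrays, called Wnt3A 1, Wnt3A 2, control 1 and control 2. Separate animals or cultures behind the arrays of a group are not named in the labels, and the spread that enters the p-values may therefore be technical. In such bulk RNA, fewer cells of a type and less RNA per cell cannot be told apart.

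Wnt proteins signal through Frizzled receptors and the co-receptors Lrp5 and Lrp6 to stabilise beta-catenin, which acts with TCF/LEF factors on target genes. Sfrp proteins and Frzb carry a Frizzled-like cysteine-rich domain and can bind Wnt proteins outside the cell, as Wif1 does through its own WIF domain. Dkk1 and Dkk2 instead bind Lrp5 and Lrp6, as Sostdc1 can, and Sostdc1 also binds BMP proteins. Several antagonists, Dkk1 among them, are themselves known targets of beta-catenin in other cells, and SFRP1 is often silenced in human breast tumours.

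Values were log2 differences of a probe set from its own median over the 4 arrays, so they compare arrays and carry no level of a gene. A coarse level was read from the spacing of the stored numbers, which placed each probe set at log2 8 to 16, 4 to 8 or below 4. The reading uses all 4 arrays, so 1 array with a lower signal can put a probe set in a lower band than its median. Of the 19 antagonist probe sets 7 were in the upper band, 9 in the middle band and 3 below log2 4. Over all probe sets 33.4% were in the upper band. Of the probe sets for basal and myoepithelial markers 10 of 19 were in that band, among them those of the keratin genes Krt5 and Krt14, and of luminal markers 9 of 18. Of fibroblast and stromal markers 1 of 17 was in it, of endothelial markers 0 of 6 and of immune markers 1 of 8. The 4 column medians lay between -0.02 and 0.02. The number of arrays limits the precision, with a median standard error of 0.158 log2 units for a probe set's difference.

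Sfrp1 was the antagonist gene with the most separated signal. In all 5 of its probe sets both Wnt3A arrays lay below both control arrays, with differences between -0.66 and -1.46 log2 units. Among the remaining 14 probe sets, differences were at most 0.73 log2 units in size and 4 had groups that did not overlap. Groups did not overlap in 33.7% of all probe sets, 17.4% higher and 16.3% lower. limma, a linear model with variances moderated across all probe sets, called 0 of the 19 at a Benjamini-Hochberg adjusted p under 0.05, and it called 0 of all 45037 (0.0%). At an unadjusted p under 0.05 it counted 5 antagonist probe sets lower with Wnt3A, all of Sfrp1, and 0 higher, beside 2801 of all probe sets (6.22%; 3.24% of all lower and 2.98% higher).

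The Sfrp1 probe set 1460187_at, in the middle band, was at -1.11 and -0.56 in the Wnt3A arrays and at 0.56 and 0.70 in the control arrays. Group means were -0.83 ± 0.39 with Wnt3A and 0.63 ± 0.10 in the control (SD, n = 2 arrays each). The difference of -1.46 ± 0.23 log2 units (SE), a 2.76-fold lower signal with Wnt3A, had an adjusted p of 0.65 in limma. The groups were apart by more than either spread, since the closest pair of arrays differed by -1.12.

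The probe set 1448395_at, in the upper band, was at -0.70 and -0.47 with Wnt3A and at 0.92 and 0.47 in the control. Its difference was -1.28 ± 0.21 log2 units, a 2.43-fold lower signal (limma adjusted p = 0.65). The groups were again separated, by at least 0.94 log2 units between any pair of arrays.

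The probe set 1428136_at, also in the upper band, was at -0.42 and -0.39 with Wnt3A and at 0.40 and 0.39 in the control. Replicates were closest here, 0.03 apart with Wnt3A and 0.01 apart in the control, and the difference was -0.80 ± 0.12 log2 units (1.74-fold lower, limma adjusted p = 0.65). By unadjusted p it ranked 123 of 45037, with 1460187_at at rank 148 and 1448395_at at rank 176.

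The last pair of Sfrp1 probe sets, 1416594_at and 1438620_x_at, showed smaller differences and wider spread. The first was at -0.12 and -0.39 with Wnt3A and at 0.71 and 0.12 in the control, a difference of -0.67 ± 0.25. The second, whose x suffix marks probes that may match other transcripts, was at -0.12 and -0.47 with Wnt3A and at 0.60 and 0.12 in the control, a difference of -0.66 ± 0.23. In both, control 1 was the high array and control 2 lay within 0.25 log2 units of Wnt3A 1. Their limma adjusted p values were 0.80 and 0.79.

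**Figure D1:**
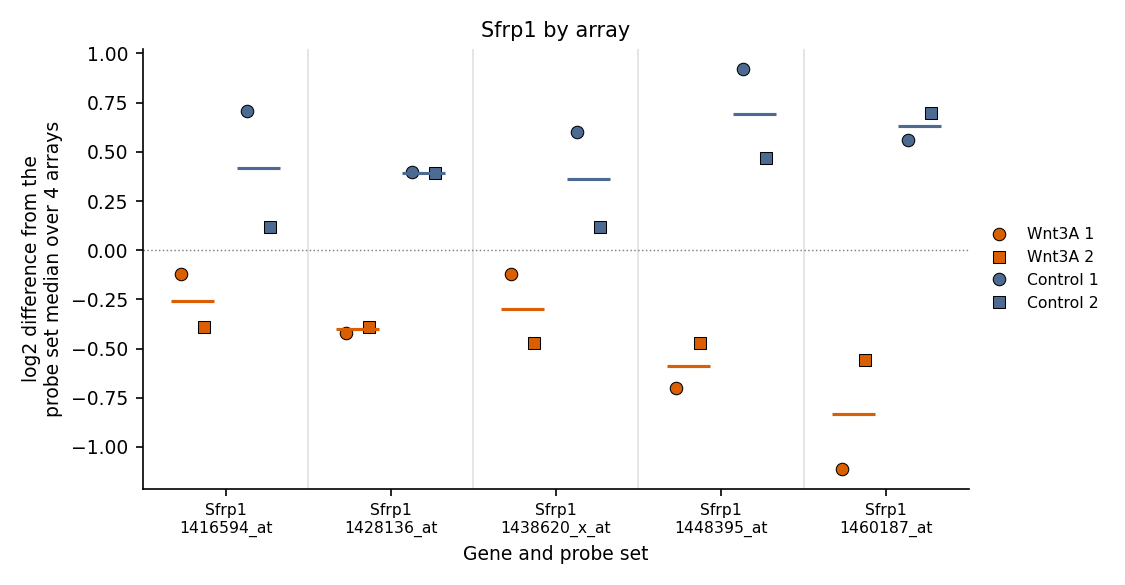
Signal of the 5 Sfrp1 probe sets (x axis) as log2 difference from the probe set's median over 4 arrays (y axis), with 1 point per array and a line at each group mean of 2 arrays. Both Wnt3A points lie below both control points in all 5 probe sets, most widely in 1460187_at, where they sit at -1.11 and -0.56 against 0.56 and 0.70.

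As the mean of its 5 probe sets, Sfrp1 was at -0.49 and -0.46 with Wnt3A and at 0.64 and 0.36 in the control. The gene's difference was -0.97 ± 0.15 log2 units, 1.96-fold lower with Wnt3A, with an adjusted p of 0.42 when limma was fitted over 18193 genes. It ranked 69 of these genes by unadjusted p and 336 by the size of the difference. Of the 856 genes with at least 5 probe sets, every probe set was separated lower in 13 and higher in 1. Sfrp1 was 1 of 2 of these genes in which every probe set was also lower by at least 0.5 log2 units. Of single probe sets, 3.12% were separated lower by at least 0.5 log2 units. These counts were not planned, and their limit of 5 probe sets is the number that Sfrp1 has. Probe sets of a gene share arrays and RNA, and 3 of the 5 for Sfrp1 were designed from one cDNA record, so they are not replicates of the treatment.

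Leaving out 1 array gave Sfrp1 differences between -0.38 and -1.74. Their sign could not change, because the groups were separated in all 5 probe sets, so only the size is informative. The count at an unadjusted p under 0.05 was 5 of 5 without control 2 and 3 of 5 without control 1, without Wnt3A 1 and without Wnt3A 2. The smallest difference, -0.38, was that of 1416594_at without control 1.

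Markers of other cell states are given beside Sfrp1. Their counts are to be read against all probe sets, of which 17.4% were separated higher and 16.3% lower. The luminal transcription factor gene Foxa1 was at -1.85 and -0.68 with Wnt3A and at 0.68 and 1.47 in the control. In the luminal list, 6 of 18 probe sets were separated lower and 1 higher, with a median difference of -0.18. The myoepithelial oxytocin receptor gene Oxtr (1440888_at) was at -1.26 and -1.32 with Wnt3A and at 1.26 and 1.37 in the control, and its other probe set differed by -0.17. The basal list as a whole had 4 of 19 probe sets separated higher and 2 lower and a median of 0.19. Squamous differentiation markers were separated higher in 9 of 13 probe sets, with a median of 1.23. By array, the median of this list was 0.38 in Wnt3A 1, 1.09 in Wnt3A 2, -0.44 in control 1 and -0.36 in control 2. Stromal markers were separated higher in 4 of 17 and lower in 2 of 17 (median 0.07). The lower ones were both of Pdgfra, a receptor of fibroblasts, at -1.76 ± 0.48 and -0.54 ± 0.16. Another Pdgfra probe set, 1421916_at, differed by 0.02 ± 0.26 with groups that overlapped. Endothelial markers were separated higher in 2 of 6 and immune markers in 2 of 8, with 0 lower in either list. The part of these cell types in the Sfrp1 difference was not tested.

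The other Frizzled-like antagonists differed little. Sfrp2, which mesenchymal cells often make, was at 0.04 and -0.04 with Wnt3A and at -0.59 and 0.69 in the control. The control arrays thus lay on either side of the Wnt3A arrays, 1.28 log2 units apart, a gap wider than that of 98.4% of all probe sets, and the difference was -0.05 ± 0.45. Sfrp4, by contrast, was nearly the same in every array, between -0.04 and 0.05, and its groups were separated lower by a difference of -0.05 ± 0.12, which is within the standard error.

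Sfrp5, closely related to Sfrp1 in sequence, had small positive differences that rested on single arrays. Its probe set 1436075_at was at 0.21 and -0.02 with Wnt3A and at 0.02 and -0.39 in the control, a difference of 0.28 ± 0.20. The probe set 1423023_at was at 0.31 and -0.06 with Wnt3A and at -0.17 and 0.06 in the control, a difference of 0.18 ± 0.19. Groups overlapped in both, with Wnt3A 1 the highest array each time. Leaving out 1 array gave 0.07 (without control 2) to 0.48 (without control 1) for 1436075_at and 0.00 (without Wnt3A 1) to 0.37 (without Wnt3A 2) for 1423023_at.

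Frzb, also called Sfrp3, gave different values in its probe sets. The middle-band probe set 1416658_at was at 0.04 and 0.26 with Wnt3A and at -0.04 and -0.24 in the control, separated by a difference of 0.29 ± 0.15 (limma adjusted p = 0.88). The probe set 1448424_at, below log2 4, was at 0.05 and -0.14 with Wnt3A and at -0.05 and 0.05 in the control, so the groups overlapped (-0.04 ± 0.14).

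Among the Dickkopf genes, Dkk1 encodes the best known Lrp5 and Lrp6 antagonist. Its promoter is shown because it was the 1 of 6 antagonist promoters in the RefSeq table, those of Frzb, Sfrp2, Dkk2, Wif1, Dkk1 and Sfrp5, in which a TCF/LEF core motif was found. The motif was searched as CTTTGNN, with A or T at each N, on both strands, from 250 bases before to 50 bases after the start of the gene, and 16.9% of 32851 such windows held at least 1 match. Dkk1 held 2, and 1.94% of windows held at least 2. The window is GRCm38.p6 chr19:30549447-30549746 on the minus strand, printed 5′ to 3′ in the direction of the gene, with the matches, which begin at positions -117 and -98 relative to the start, in capitals.
Dkk1: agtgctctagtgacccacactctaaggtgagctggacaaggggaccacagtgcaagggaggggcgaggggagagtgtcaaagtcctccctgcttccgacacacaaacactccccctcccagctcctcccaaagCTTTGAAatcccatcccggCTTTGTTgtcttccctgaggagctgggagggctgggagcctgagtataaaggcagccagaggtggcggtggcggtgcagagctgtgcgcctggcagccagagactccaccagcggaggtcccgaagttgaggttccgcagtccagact
A match describes these letters and does not show that a factor binds there.

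Dkk1 showed small differences. The probe set 1458232_at, below log2 4, was at 0.19 and 0.03 with Wnt3A and at -0.03 and -0.08 in the control, separated by a difference of 0.16 ± 0.13. The middle-band probe set 1420360_at was at 0.05 and 0.00 with Wnt3A and at 0.00 and -0.23 in the control, a difference of 0.14 ± 0.14 with no gap between groups. Neither difference was far from its standard error, and limma adjusted p values were 0.95 and 0.97.

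Dkk2, which can act on the same co-receptors, was at 0.04 and -0.04 with Wnt3A and at 0.24 and -0.08 in the control, a difference of -0.08 ± 0.16 in a probe set below log2 4. Its groups overlapped, with control 1 the highest array.

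Dkk3, a divergent family member that is not a classical antagonist of Lrp5 and Lrp6, was in the upper band in both probe sets. The probe set 1417312_at was at 0.12 and 0.13 with Wnt3A and at -1.10 and -0.12 in the control, a separated difference of 0.73 ± 0.35 log2 units (1.66-fold higher, limma adjusted p = 0.86). The probe set 1448669_at was at -0.02 and 0.19 with Wnt3A and at -1.0 and 0.02 in the control, with groups that overlapped narrowly and a difference of 0.58 ± 0.37. In both, control 1 alone stood apart, and the gap between the controls exceeded that of 96.6% and 96.9% of all probe sets. Without control 1 the differences were 0.25 and 0.07, against 1.22 and 1.09 without control 2. Control 1 was below control 2 in 5 of 17 probe sets of stromal markers and in 13 of 19 of basal and myoepithelial markers, against 44.2% of all probe sets. Of the basal and myoepithelial markers, Myh11 (1448962_at) was at -3.3 in control 1 and 0.5 in control 2. In the same order, Cnn1 was at -2.75 and 0.48, and Acta2 (1416454_s_at) at -1.66 and 0.18. Krt5, at 0.02 and -0.42, went the other way, as did Acta2 1456658_at, at 0.12 and 0.06. Stromal markers also disagreed. The collagen gene Col1a2 (1423110_at) was at -1.13 in control 1 and 1.00 in control 2. Pdgfra (1421917_at) was at 1.67 in control 1 and 0.42 in control 2. The part of these markers in the Dkk3 difference was not tested.

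Wif1 was in the upper band and was highest in Wnt3A 1. It was at 1.08 and -0.03 with Wnt3A and at 0.03 and -0.42 in the control, so the groups overlapped. The difference was 0.72 ± 0.42 log2 units (1.65-fold higher, limma adjusted p = 0.91), and the gap of 1.11 between the Wnt3A arrays exceeded that of 97.0% of all probe sets. It was 0.17 without Wnt3A 1 and 1.27 without Wnt3A 2.

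Sostdc1, also known as Wise or ectodin, was in the upper band in both probe sets. The probe set 1460250_at was at 0.03 and -0.26 with Wnt3A and at 0.53 and -0.03 in the control, a difference of -0.37 ± 0.24. The probe set 1449340_at was at 0.03 and -0.30 with Wnt3A and at 0.31 and -0.03 in the control, a difference of -0.28 ± 0.20. Both gave the same order of arrays, with control 1 highest and Wnt3A 2 lowest, and groups overlapped because Wnt3A 1 lay above control 2. Limma adjusted p values were 0.93 and 0.94. Without control 1 the differences were -0.09 and -0.11, and without control 2 they were -0.65 and -0.45. Leaving out Wnt3A 2 gave -0.22 and -0.12, and leaving out Wnt3A 1 gave -0.51 and -0.44.

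**Figure D2:**
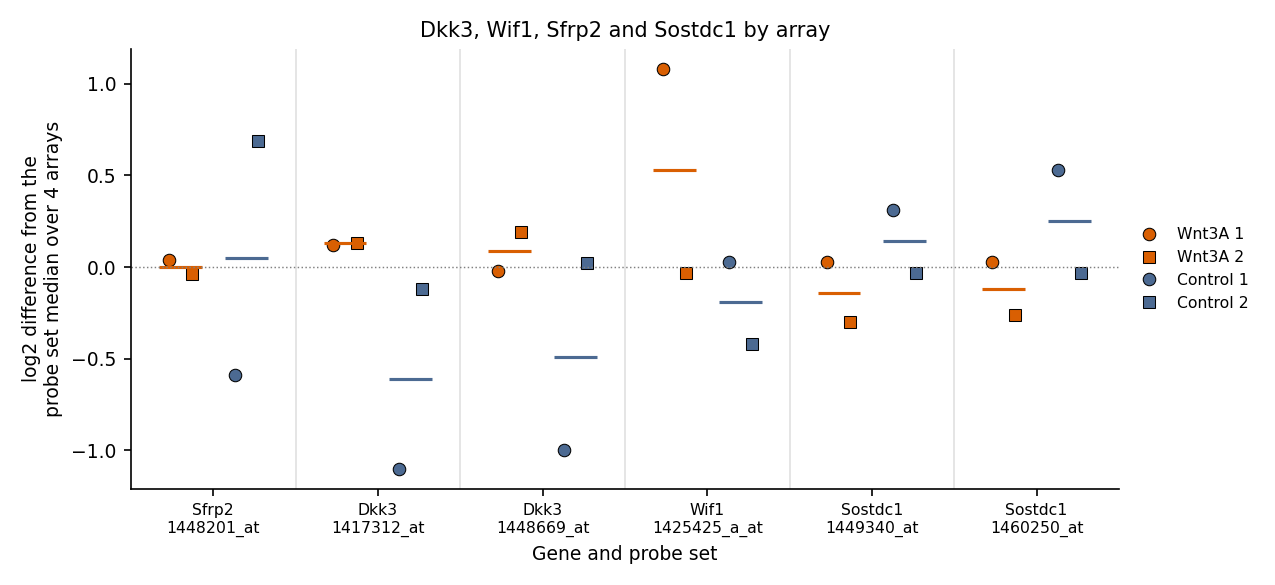
Signal of Sfrp2, Dkk3, Wif1 and Sostdc1 probe sets (x axis) as log2 difference from the probe set's median over 4 arrays (y axis), with 1 point per array and a line at each group mean. Control 1 is the low array for Dkk3, at -1.10 and -1.0, the controls of Sfrp2 lie at -0.59 and 0.69, and Wnt3A 1 is the high array for Wif1, at 1.08.

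Across the family, groups did not overlap in 9 of 19 probe sets, 3 higher and 6 lower with Wnt3A, and 10 overlapped. Over all probe sets, 33.7% were separated, 17.4% higher and 16.3% lower. Of the antagonist probe sets 15.8% were separated higher and 31.6% lower. The median difference was -0.05 log2 units over all 19 and 0.15 over the 14 that were not of Sfrp1, beside 0.01 over all probe sets. The 3 separated higher were 1 each of Frzb, Dkk1 and Dkk3, and the 6 separated lower were the 5 of Sfrp1 and that of Sfrp4. An exact permutation test of 2 against 2 arrays cannot give a two-sided p below 0.33, so no such test was made on single probe sets.

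**Figure D3:**
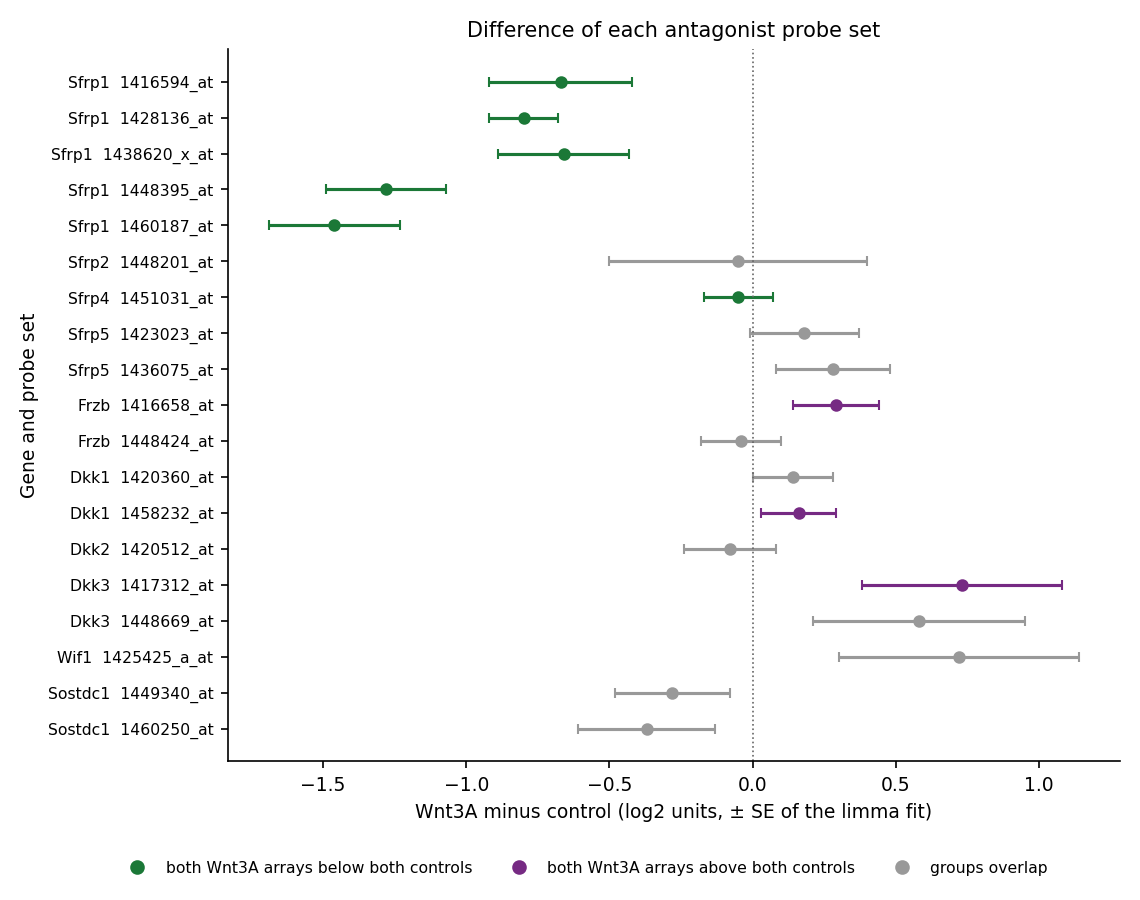
Wnt3A minus control in log2 units (x axis) for each of the 19 antagonist probe sets (y axis), with bars of ± 1 standard error from the limma fit and colours for whether the 2 arrays of each group overlap. The 5 Sfrp1 points lie between -1.46 and -0.66, and the largest positive differences, 0.73 for Dkk3 and 0.72 for Wif1, have bars of 0.35 and 0.42.

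Other inhibitors of the pathway were given for context, as a list chosen beside the antagonists, and 13 of its 14 genes were measured by 32 probe sets. Of these, 9 (28.1%) were separated higher and 6 (18.8%) lower with Wnt3A, beside 17.4% and 16.3% of all probe sets. The median difference was 0.02, and 0 passed the adjusted limma threshold. Notum, a secreted enzyme that removes the lipid of Wnt proteins, was at 0.37 and 1.03 with Wnt3A and at -0.37 and -0.65 in the control, a difference of 1.21 ± 0.27. Apcdd1, a membrane inhibitor, was at 0.17 and 1.22 with Wnt3A and at -0.81 and -0.17 in the control (1454822_x_at, 1.18 ± 0.44, the largest of 6 probe sets). Igfbp4, an insulin-like growth factor binding protein that can also bind Frizzled and Lrp6, was at -0.31 and -1.33 with Wnt3A and at 0.31 and 0.53 in the control (1423756_s_at, -1.24 ± 0.37, the lowest of 6). All 3 were separated, Notum and Apcdd1 higher and Igfbp4 lower.

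Genes for Wnt ligands, Frizzled receptors and co-receptors were measured as well, as RNA and not as protein. Over all probe sets, 17.4% were separated higher and 16.3% lower. Of 32 probe sets for 19 Wnt ligand genes, 12 (37.5%) were separated higher and 0 lower with Wnt3A, with a median of 0.13. Wnt7a differed by 1.08 ± 0.39 in 1423367_at and by 0.32 ± 0.17 and 0.17 ± 0.28 in its other probe sets. Wnt10a differed by 0.79 ± 0.21. Wnt9a differed by 0.73 ± 0.45 in 1436978_at and 0.17 ± 0.12 in its other probe set. In 1436978_at control 1 alone stood apart, at -1.25 against -0.00 in control 2 and 0.00 and 0.20 with Wnt3A. Of 38 probe sets for 16 Frizzled and co-receptor genes, 9 (23.7%) were separated higher and 14 (36.8%) lower, with a median of -0.07. Ror1, a receptor of Wnt5a, differed by -1.26 ± 0.13 in 1429313_at and by -0.28 ± 0.16 and -0.04 ± 0.26 in its other probe sets. Fzd5 differed by 0.56 ± 0.15 in 1455604_at and 0.29 ± 0.13 in its other probe set, and Fzd9 by -0.56 ± 0.20. Of the co-receptors bound by Dkk1, Lrp5 was at -0.06 and -0.21 with Wnt3A and at 0.45 and 0.06 in the control, separated by a difference of -0.39 ± 0.18. Lrp6 differed by -0.03 ± 0.29 and 0.11 ± 0.12 in its probe sets.

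Feedback and target genes of canonical Wnt signalling gave 4 of 23 probe sets separated higher and 4 lower, with a median of 0.02 over 10 measured genes. Axin2, the standard target of canonical Wnt signalling, was at 1.20 and 0.58 with Wnt3A and at -0.58 and -1.18 in the control (1436845_at, 1.76 ± 0.32, limma adjusted p = 0.65), while its other probe set, below log2 4, differed by -0.12 ± 0.13. Lgr5, the R-spondin receptor gene, was at -1.16 and -0.52 with Wnt3A and at 0.52 and 0.77 in the control (1450988_at, -1.48 ± 0.26), and its other probe set differed by -0.14 ± 0.14. Tnfrsf19 (1448147_at) differed by 1.54 ± 0.85 and was set by Wnt3A 2, at 2.61 against 0.15 in Wnt3A 1, and its other probe sets differed by -0.02 and 0.15. No list was tested as a whole, and each is described by its counts beside the 17.4% and 16.3% of all probe sets.

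**Figure D4:**
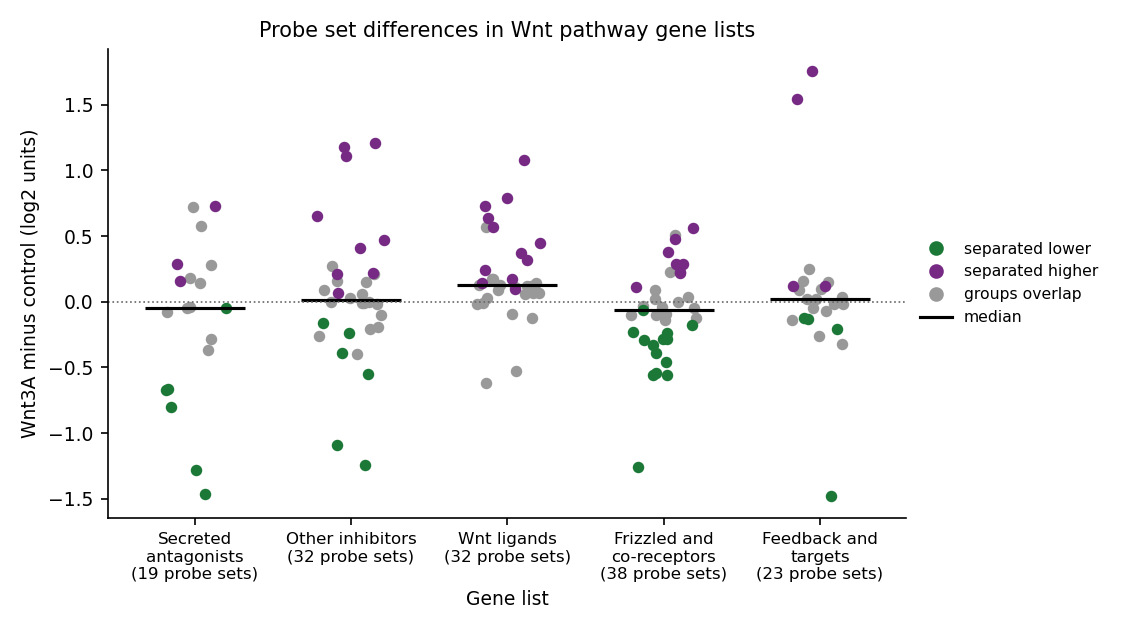
Wnt3A minus control in log2 units (y axis) of every probe set in 5 Wnt pathway gene lists (x axis), with a line at each list's median and colours for whether the 2 arrays of each group overlap. List medians lie between -0.07 and 0.13, and the 5 lowest antagonist points are those of Sfrp1.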

How the data were processed

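Affymetrix Mouse Genome 430 2.0 arrays measured RNA in 4 samples. The deposited log2 values were made by the authors with RMA, per the submitters' processing notes. The deposited rows, 45101 in number, each had a median of 0 over the 4 arrays, and the step that centred them is not named in the labels. After 64 array controls were left out, 34945 probe sets had 1 gene symbol, 932 had several and 9160 had none, and the Entrez identifiers of all 10 antagonist genes had the same symbol in RefSeq.

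A two-sided limma fit (version 3.58.1, R 4.3.3; lmFit, then eBayes) set Wnt3A against control without covariate or further normalization, with Benjamini-Hochberg adjustment over 45037 probe sets and a threshold of 0.05. It had 2 residual and 2.3 prior degrees of freedom and gave the standard errors, and one probe set is one result. On simulated data for this comparison, 0% of changes of 1 log2 unit, 46% of 2, 86% of 3 and 88% of 4 were recovered among 45037 probe sets, so changes near 1 log2 unit, as in most of the Sfrp1 probe sets, would rarely be called. Groups are called separated where both Wnt3A arrays lay above, or below, both controls. Level bands rest on the spacing of single-precision numbers, and simulated bands were read correctly for 100.0% (upper), 93.6% (middle) and 93.7% (lowest) of rows. All 4 values of a simulated row lay in 1 band, so rows whose arrays span bands were not checked. Antagonist genes and lists were chosen with earlier results of these data known. Every antagonist probe set is given. From each other list at most 3 probe sets with the largest separated differences, and always Axin2, were to be named. Krt5, Krt14, Acta2, Myh11, Cnn1, Col1a2, Lrp5, Lrp6 and further probe sets of named genes were added after their values were seen. Not every probe set the rule allows is printed. The rule fixed for promoters, a separated difference of at least 1 log2 unit, pointed to Sfrp1, whose promoter is not used here, so the Dkk1 promoter was chosen after its motif matches were seen. Replicate numbers shared by the groups are not stated to mark a shared animal or batch. Tables and figures were made in Python 3.11.15 (pandas 2.3.3, numpy 2.4.6, matplotlib 3.10.9).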

Additional observations from a re-analysis of the deposited data

How the results depend on the processing

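Alternatives were quantile normalization, centring of each array, leaving out the lowest level band, 2 ways of averaging probe sets to genes, eBayes in its robust form, a replicate block and each array left out in turn. limma called 0 probe sets or genes at an adjusted p under 0.05 in all of them. Robust eBayes, the replicate block and leaving out the lowest band cannot alter a difference, so only the other settings could change a sign. Apart from the arrays left out, 128 of 130 values of antagonist probe sets kept their sign. A gene's mean was counted here once for each of its probe sets. The 2 values that changed sign were those of the Frzb probe set 1448424_at. It became 0.12 as the mean of the gene's probe sets and 0.29 as the mean of those in the highest band, since the other Frzb probe set then enters. The 5 Sfrp1 probe sets had an unadjusted p under 0.05 in each of these fits by probe set, except that 4 of 5 did when the lowest band was left out. With the replicate number as a block, 1 residual degree of freedom is left. In this balanced design the block changes only the standard errors, so the Sfrp1 differences of -1.46 to -0.66 stay by construction. The limma adjusted p of the 5 Sfrp1 probe sets was then 0.37 to 0.40. At an unadjusted p under 0.05, limma counted 4882 probe sets with the block against 2801 without it. Over probe sets, the difference between the controls correlated at 0.526 with the difference between the Wnt3A arrays of the same numbers, a hint from the data only, and 2 pairs cannot establish pairing.

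By gene, medians became 0.04 for the antagonists, 0.08 for other inhibitors, 0.10 for stromal, -0.29 for luminal and 2.03 for squamous markers with all probe sets, and 0.05, 0.09 and 2.03 for antagonists, other inhibitors and squamous markers with the highest band. The antagonists separated lower were then 2 genes, Sfrp1 and Sfrp4, in either case, because the unit is the gene. Without the lowest band the stromal median was 0.05.

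With each array left out, the sign changed for Sfrp2 (-0.69 to 0.59), Sfrp5 1423023_at (-0.00 to 0.37), Frzb 1448424_at (-0.14 to 0.05) and Dkk2 (-0.24 to 0.08). Antagonist probe sets separated higher numbered 4 to 7 and those separated lower 6 to 9, since a lone array separates more easily. List medians ranged from -0.09 to 0.01 for the antagonists, 0.01 to 0.07 for other inhibitors, 0.05 to 0.26 for Wnt ligands, -0.16 to 0.02 for receptors, -0.06 to 0.09 for feedback genes, 0.02 to 0.12 for stromal, -0.18 to 0.13 for endothelial, 0.03 to 0.14 for immune, -0.14 to 0.23 for basal, -0.30 to 0.00 for luminal and 0.83 to 1.66 for squamous markers. The cause of these shifts was not tested. A lone array in a group takes its spread from the other group.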

Other observations

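Apart from the antagonists, 2 other inhibitor genes were measured by 6 probe sets each, a choice made with their values known. Apcdd1 was separated higher with Wnt3A in 4 of 6 probe sets, with differences from 0.06 to 1.18 log2 units. Igfbp4 was separated lower in 4 of 6, with differences from -1.24 to -0.19. The shares over all probe sets were 17.4% separated higher and 16.3% lower. For Apcdd1, Wnt3A 2 was the higher of the Wnt3A arrays in the 4 separated probe sets, at 0.61 to 1.22 against 0.01 to 0.25 in Wnt3A 1. For the Igfbp4 probe set 1437406_x_at, in the upper band, replicates were close, at -0.27 and -0.28 with Wnt3A and at 0.29 and 0.27 in the control.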
